A study of Arabidopsis thaliana with 4 samples.

Results

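Xyloglucan endotransglucosylase/hydrolases (XTHs) are secreted enzymes of the plant cell wall. Xyloglucan is a branched glucan that coats and tethers cellulose microfibrils, and XTHs cut its backbone and join the cut end to another xyloglucan chain or, in some members, to water. Arabidopsis carries a large family of these genes, and seedlings growing in darkness elongate their hypocotyl through wall expansion, which light restrains. The family was taken as the rows of the deposited tables whose locus belongs to XTH1 to XTH33. All 33 were found among the 27416 gene models.

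The samples were whole seedlings of Arabidopsis thaliana ecotype Col-0, wild type, 2 kept dark and 2 under red light at 60 µmol m-2 s-1. All shared 4 days at 4 °C, 12 h of white light and medium with 1% sucrose, before the 4 days of dark or red-light growth, which brought them to 4.5 days. The design asked which genes red light regulates. The tables held 1 column of reads and 1 of RPKM (reads per kilobase of coding length and per total reads) for each condition. The sources used here do not say how the 2 replicates entered it, so no value has a replicate error and no difference has a replicate check or a p-value. The dark column held 41106535 reads and the red-light column 33521717. Bracketed ranges are exact 95% intervals of the ratio of RPKM values, and they cover counting error only.

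The members share the catalytic site of the family, in which a pair of glutamate codons flanks an aspartate codon. A script found it once in 32 of the 33 coding sequences, all but that of XTH11. The sites of 8 members are shown, those of the 4 called genes with the largest log2 change (XTH15, XTH6, XTH32 and XTH5), each followed by that of its nearest relative. They are coding-strand sequences from the RefSeq annotation of TAIR10.1, with the glutamate, aspartate and glutamate codons in capitals.
XTH15: catgacGAGataGACtttGAGtttctaggt
XTH16: cacgacGAGataGACtttGAGtttcttggt
XTH6: agagacGAGctaGATtttGAGttcttggga
XTH7: cgagacGAGcttGATtttGAGttcttagga
XTH32: catgatGAGgtaGACataGAAtttttgggg
XTH31: cacgatGAGgtcGATatcGAGtttctaggg
XTH5: catgatGAGataGACtttGAGtttctaggg
XTH4: catgacGAGataGACtttGAGttccttgga
XTH16 and XTH5 matched XTH15 at 28 of these 30 bases each, XTH4 at 27, XTH7, XTH31 and XTH32 at 22 each and XTH6 at 21. The first codon of the site read for histidine in 16 members, for tryptophan in 12 and for arginine in 4. All 12 with tryptophan belonged to group 2, whereas XTH15, XTH16 and XTH26 of that group had histidine. The codon just before the last capitals read for phenylalanine in 27 members and for isoleucine in XTH29 to XTH33.

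As a whole, the family took a share of 0.617% of the dark reads and 0.282% of the red-light reads, 253458 and 94631 reads. The ratio of these shares was 0.458 (0.454 to 0.461). XTH15 alone held 121796 of the dark reads, and without it the ratio was 0.853 (0.846 to 0.860). In bulk samples, fewer cells of a type and less RNA per cell cannot be told apart. The order of the members by level changed with the conditions. In darkness XTH15 made up 48.3% of the summed RPKM of the family, XTH4 13.7% and XTH24 12.1%. In red light XTH4 made up 34.4%, XTH24 15.9% and XTH17 6.004%, and XTH15 had moved to the tenth place with 3.28%. Counting intervals of neighbours in this order overlapped in 16 of 32 neighbour pairs in each condition. Among them were XTH18, XTH31, XTH16, XTH27 and XTH22 in red light, each against the next, all between 115.6 and 132 RPKM.

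**Figure D1:**
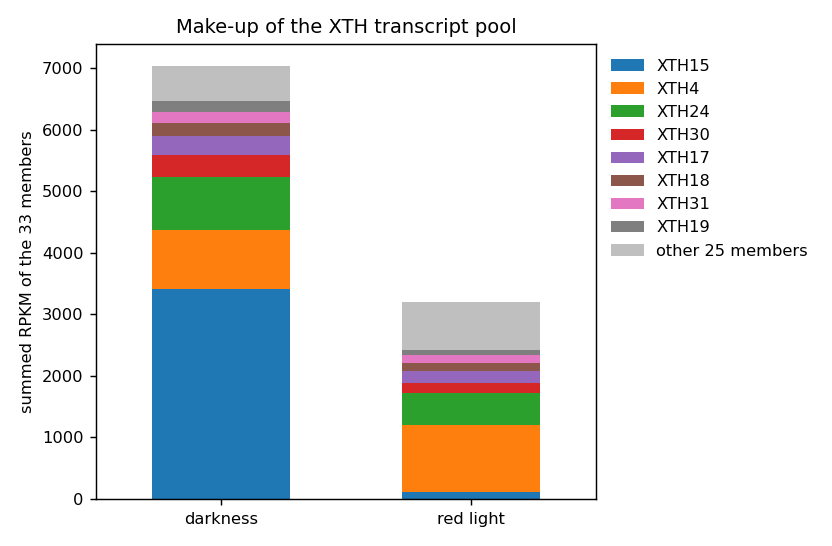
Stacked bars show the summed RPKM of the 33 members in darkness and in red light (vertical axis), with the 8 members of highest level in colours and the other 25 in grey. The dark bar reaches 7046 RPKM and the red-light bar 3199 RPKM, and the XTH15 segment shrinks from 3406 to 105 RPKM.

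A gene was called when RPKM + 1 differed at least 2-fold between the conditions (a log2 change of 1) and the higher level was at least 10 RPKM. By this rule 6 members rose in red light, 6 fell and 21 were not called. Of the 21, 10 reached 10 RPKM in a condition and 11 did not, so these 11 could not be called. Over all 27416 genes, 4.00% were called higher and 2.47% lower. Of the 33 members 18.2% were called in each direction. A level of 10 RPKM, which a call needs, was reached by 22 of the 33 members and by 12625 of all genes. The median log2 change of all 33 members was -0.09, and that of all genes was 0.00. Of all members, 12 had more RPKM in red light, 20 had less, and XTH1 had no read in either condition. Of all 27416 genes, 10832 had more RPKM in red light and 13124 had less. The remaining genes were equal in both conditions, and the median of all genes falls among them, so 0.00 does not describe a typical expressed gene.

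**Figure D2:**
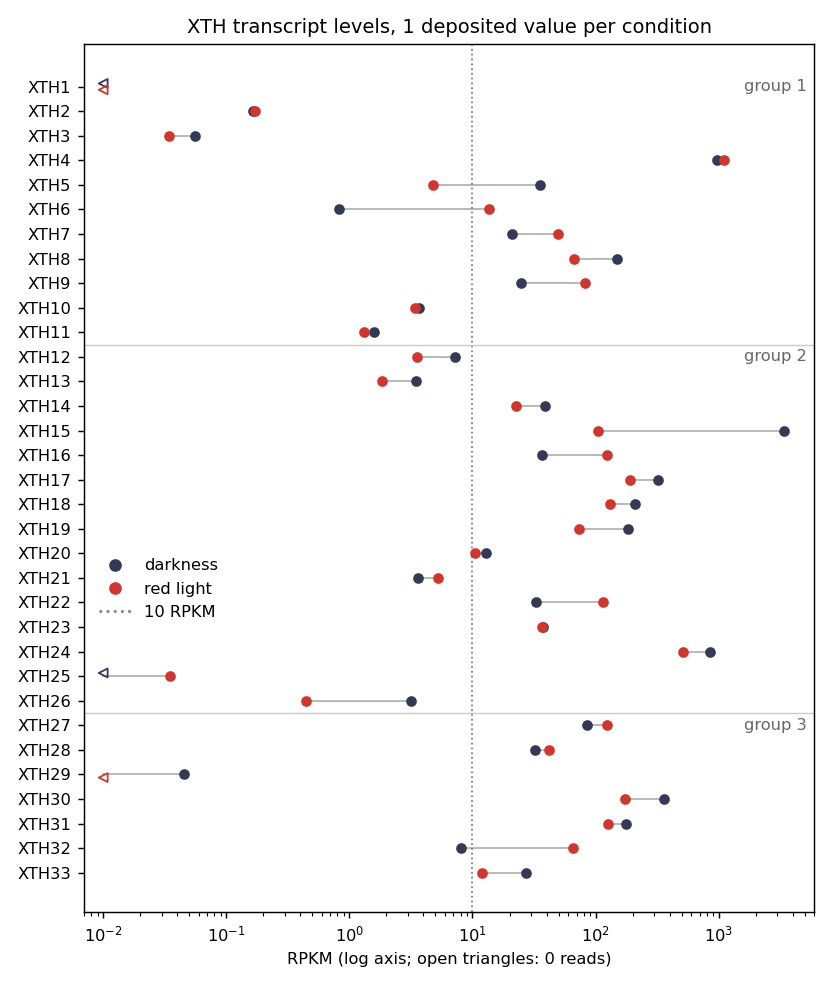
Each row is a member, with its RPKM in darkness and in red light on a log axis. Open triangles at the left edge stand for 0 reads and the dotted line for 10 RPKM. The levels run from 0 to 3406 RPKM, and the longest bar among members above the line is that of XTH15.

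XTH15 (AT4G14130, also named XTR7) showed the steepest fall of the family. It had 121796 dark and 3063 red-light reads, or 3406 and 105 RPKM. It fell 32.4-fold (31.3 to 33.6). It ranked 15 among all genes by RPKM in darkness and 1779 in red light. The gene lies at chr4:8137020-8138392 on the minus strand of TAIR10.1 with 3 coding exons and a coding length of 870 bases. Of its coding sequence, 27.7% lies inside the span of AT4G14120 on the opposite strand, and the sources used here do not say whether counting used the strand. AT4G14120 itself had 32 dark and 27 red-light reads.

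XTH16 (AT3G23730, at chr3:8550037-8551403 on the plus strand) is the nearest relative of XTH15, with 80.5% identity over the coding sequence, and went the other way. It had 1327 dark and 3646 red-light reads, or 36.9 and 124 RPKM. It rose 3.37-fold (3.16 to 3.59). XTH15 therefore stood 92.4 times above XTH16 in RPKM in darkness, whereas in red light XTH16 was 1.18 times the higher. The 250 bases before the annotated transcript starts of this pair are shown because the genes moved in opposite directions. Capitals mark the letters TATAAA, read on the strand of the gene.
XTH15, chr4:8138393-8138642, minus strand: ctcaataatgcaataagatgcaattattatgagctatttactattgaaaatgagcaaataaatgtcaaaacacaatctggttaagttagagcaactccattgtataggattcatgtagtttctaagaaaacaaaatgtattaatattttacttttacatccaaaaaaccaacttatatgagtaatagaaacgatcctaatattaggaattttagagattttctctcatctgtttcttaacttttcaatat
XTH16, chr3:8549787-8550036, plus strand: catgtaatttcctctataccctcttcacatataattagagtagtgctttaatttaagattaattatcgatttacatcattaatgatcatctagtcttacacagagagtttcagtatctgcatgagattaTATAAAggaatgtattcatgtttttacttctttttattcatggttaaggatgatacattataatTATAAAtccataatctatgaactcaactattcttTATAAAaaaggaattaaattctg
The word TATAAA began 121, 57 and 23 bases before the start of XTH16 and was not found in the window of XTH15. It occurred in the windows of 14 of the 33 members and of 33.2% of 26687 gene models. Neither window held CACGTG (the G-box that many light-regulated factors bind), CACATG (the PBE-box bound by PIF proteins), CGTGTG or CGTGCG (brassinosteroid response elements) or TGTCTC (an auxin response element), on either strand.

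Beside XTH15, 5 members fell in red light. XTH5 (AT5G13870), a group 1 member, had 35.2 RPKM in darkness and 4.77 in red light. It fell 7.39-fold (6.21 to 8.86), from 1278 to 141 reads. Its nearest relative XTH4 (AT2G06850), with 71.6% identity, was not called, at 969 and 1102 RPKM, a ratio of 1.14 (1.12 to 1.15). XTH4 was 27.5 times as abundant as XTH5 in darkness and 231 times in red light. XTH4 is best known as an abundant transglucosylase of growing tissues, and was the member with the most RPKM in red light.

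XTH19 (AT4G30290), a member known from roots, had 6250 dark and 2050 red-light reads, or 182 and 73.3 RPKM. It fell 2.49-fold (2.36 to 2.61). XTH8 (AT1G11545) had 5666 and 2053 reads, or 150.1 and 66.7 RPKM, and fell 2.25-fold (2.14 to 2.37). These falls were shallow beside those of XTH15 and XTH5. XTH33 (AT1G10550), known to sit at the plasma membrane, had 1046 and 373 reads, or 27.3 and 11.9 RPKM, and fell 2.29-fold (2.03 to 2.58). XTH30 (AT1G32170), the most abundant group 3 member, had 15221 and 6012 reads, or 359 and 174 RPKM, and fell 2.06-fold (2.00 to 2.13). Its call lay just past the threshold, with a log2 change of -1.04, and ended when the columns were rescaled by TMM factors (-0.97) or DESeq2 size factors (-0.98).

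The 6 members that rose started at low or middle levels, none above 36.9 RPKM in darkness. XTH6 (AT5G65730) had the largest ratio, with 30 dark and 405 red-light reads, or 0.830 and 13.7 RPKM, a ratio of 16.6 (11.4 to 24.9). XTH7 (AT4G37800), its nearest relative with 71.8% identity, rose as well, from 20.9 to 49.7 RPKM, a ratio of 2.38 (2.18 to 2.60). They were the 1 pair of mutual nearest relatives in which both members rose. XTH6 stayed the lower of the pair in both conditions, with XTH7 25.1 times higher in darkness and 3.62 times higher in red light.

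XTH32 (AT2G36870), of group 3, had 301 dark and 1971 red-light reads, or 8.14 and 65.3 RPKM. It rose 8.03-fold (7.11 to 9.10). Its nearest relative XTH31 (AT3G44990), which is known to act mainly as a hydrolase of xyloglucan, was not called, at 177 and 126 RPKM, a ratio of 0.710 (0.682 to 0.740). XTH31 was 21.8 times above XTH32 in darkness and 1.93 times in red light. The log2 change was -0.49 for XTH31 and 2.86 for XTH32.

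XTH22 (AT5G57560), long known as the touch-induced gene TCH4, had 1160 dark and 3314 red-light reads, or 33.01 and 115.6 RPKM. It rose 3.50-fold (3.28 to 3.75). XTH23 (AT4G25810), the nearest relative with 79.2% identity, was at 37.4 and 36.7 RPKM, a ratio of 0.982 (0.905 to 1.07). The members of this pair were close in darkness, and XTH22 was 3.15 times the higher in red light. XTH9 (AT4G03210), a group 1 gene, had 886 and 2403 reads, or 24.7 and 82.1 RPKM, and rose 3.33-fold (3.08 to 3.60).

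**Figure D3:**
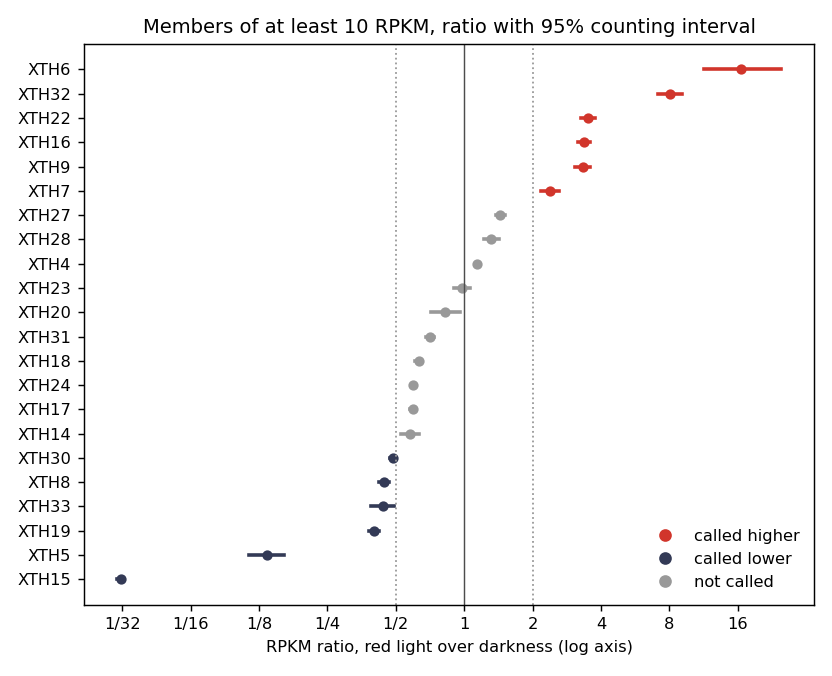
Points give the RPKM ratio of red light over darkness on a log axis for the 22 members that reached 10 RPKM, with bars for the 95% counting interval. Dotted lines mark ratios of 1/2 and 2. The 6 members called higher lie between 2.38 and 16.6, and XTH15 lies alone at the far left with 0.0308.

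Of the 10 members that reached 10 RPKM and were not called, 7 had less RPKM in red light and 3 had more. XTH24 (AT4G30270), also named MERI5, was the third most abundant member over both conditions, with 28449 and 13843 reads, or 854 and 509.8 RPKM, a ratio of 0.597 (0.585 to 0.609). XTH17 was at 322 and 192 RPKM, XTH18 at 209.8 and 132 RPKM, XTH14 at 39.1 and 22.6 RPKM and XTH20 at 12.8 and 10.6 RPKM. Their ratios ran from 0.577 for XTH14 to 0.826 for XTH20. XTH27 was at 85.6 and 123 RPKM and XTH28 at 31.9 and 41.9 RPKM, with ratios of 1.44 (1.38 to 1.51) and 1.31 (1.22 to 1.42).

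The 11 members below 10 RPKM in both conditions held 23.1 RPKM together in darkness and 15.9 in red light. XTH12 was the highest of them in darkness, at 7.26 RPKM and 3.51 in red light, and XTH21 the highest in red light, at 3.63 RPKM in darkness and 5.199 in red light. XTH26, known from root hairs, had 115 dark and 13 red-light reads, a ratio of 0.139 (0.0716 to 0.247), at 3.18 and 0.441 RPKM. XTH13, XTH10 and XTH11 lay between 1.32 and 3.68 RPKM in each condition. XTH2 had 6 and 5 reads, XTH3 2 and 1, XTH29 2 and 0, XTH25 0 and 1, and XTH1 0 and 0. A floor of 3 reads corresponds to 0.0830 RPKM in darkness and 0.102 in red light at the median coding length of 879 bases, so no fold is given for XTH1, XTH3, XTH25 and XTH29.

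By the usual groups of the family, the lowest ratio was that of group 2 (XTH12 to XTH26). Its 15 members summed to 5151 RPKM in darkness and 1333 in red light. Its reads gave a ratio of 0.253 (0.251 to 0.256), which was 0.709 (0.6996 to 0.718) without XTH15. In group 2, 2 members rose and 2 fell, and the median log2 change was -0.66. Group 1 (XTH1 to XTH11) summed to 1206 and 1324 RPKM, with a read ratio of 1.09 (1.08 to 1.11), and 3 of its 11 members rose and 2 fell. Its summed value rested mainly on XTH4. Group 3 (XTH27 to XTH33) summed to 689 and 542 RPKM, with a read ratio of 0.776 (0.762 to 0.791), and 1 of its 7 members rose and 2 fell. The median log2 change was 0.00 in group 1 and -0.06 in group 3. Over all genes, 4.00% were called higher and 2.47% lower. Some members stayed below 10 RPKM in both conditions and could not be called. They were 5 of 11 in group 1, 5 of 15 in group 2 and 1 of 7 in group 3. Differences between the groups were not tested.

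Across the family, 10 pairs of members were mutual nearest relatives by coding sequence, with 64.6% to 92.2% identity, against a median of 54.6% over all 528 pairs. In 1 pair, XTH15 and XTH16, the members were called in opposite directions. In 1, XTH6 and XTH7, they were called in the same direction. In 4 pairs 1 member was called, and in 4 neither was. Both members reached 10 RPKM in 7 of the 10 pairs, and in the other pairs at least 1 member could not be called. XTH17 and XTH18, the most alike at 92.2%, kept a near constant proportion, with XTH17 1.54 times the higher in darkness and 1.45 times in red light. XTH27 and XTH28 did so too, at 2.68 and 2.94 times.

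**Figure D4:**
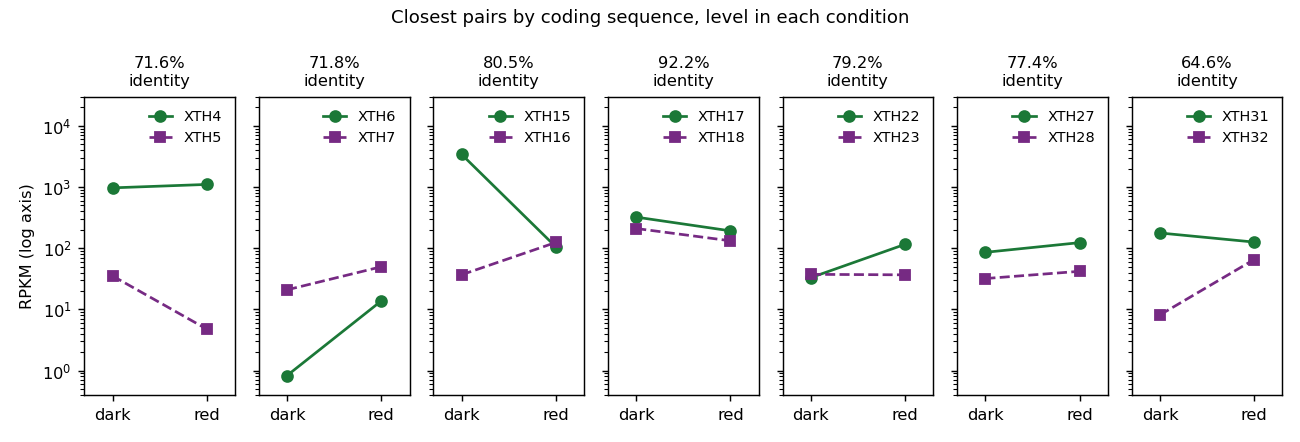
Each panel shows a pair of mutual nearest relatives in which both members reached 10 RPKM, with the RPKM in darkness and in red light on a log axis and the coding identity above. The lines cross in the panels of XTH15 with XTH16 and XTH22 with XTH23, and run side by side for XTH17 with XTH18 and XTH27 with XTH28.

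These same pairs, XTH17 with XTH18 and XTH27 with XTH28, shared the longest identical stretches in the 1000 bases before their transcript starts. The longest shared run was 73 bases for XTH17 and XTH18 and 33 bases for XTH27 and XTH28, against a median of 11 bases over the 528 pairs. The run of 73 bases reached the end of the XTH18 window, at its transcript start, so it may be longer. XTH12 with XTH13 (26 bases) and XTH14 with XTH25 (20 bases) were the other pairs with at least 20. The run of XTH14 and XTH25 began 617 and 897 bases before their starts. It lies inside the neighbouring genes XTH23 and XTH22, which are only 363 and 565 bases away. The next was XTH15 with XTH16 (18 bases), the pair called in opposite directions. Whether a shared upstream stretch goes with a shared change was not tested. In both leading pairs the shared stretch held the PBE-box, CACATG on 1 strand and CATGTG on the other, shown in capitals with the bases around it.
XTH17, chr1:24256979-24257008, plus strand: atgcgggaccagCATGTGatatacgaatgt
XTH18, chr4:14827257-14827286, minus strand: acgcgggaccagCATGTGatatacgaatgt
XTH27, chr2:384370-384399, plus strand: tatttgtcgggaCACATGtgtaagaagcaa
XTH28, chr1:5069158-5069187, minus strand: tatttgtcgggaCACATGtgtaagcagcaa
The motif began 225 bases before the start of XTH17 and 63 bases before that of XTH18. The XTH17 gene has another annotated start 162 bases further upstream. Counted from there, the motif lay as far upstream as in XTH18. Another match, 892 bases before XTH18, lay outside the shared run. In the other pair the motif began 789 bases before XTH27 and 498 before XTH28, where a second match overlapped it. In the 1000-base window CACATG, on either strand, occurred in 13 of 33 members and in 37.8% of 26687 gene models. CACGTG occurred in 4 of 33, namely XTH7, XTH8, XTH25 and XTH30, and in 15.1% of gene models. The windows were not cut at neighbouring genes, and the XTH25 match, 777 bases upstream, lies inside the gene XTH22. CGTGTG or CGTGCG occurred in 9 of 33 and in 21.3% of gene models, and TGTCTC in 16 of 33 and in 39.6%. CACGTG and CGTGTG can overlap by 4 bases. A match is a description of the letters and says nothing of binding.

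Several members lie side by side on the chromosomes, and neighbours did not always move alike. XTH24, XTH18 and XTH19 lie in this order on the minus strand of chromosome 4 with no protein-coding gene between them. XTH24 and XTH18 had ratios of 0.597 and 0.630, and XTH19 had 0.402 (0.382 to 0.423). XTH13, XTH25 and XTH22 are neighbours on the minus strand of chromosome 5, and XTH12 is separated from XTH13 by 1 gene. Here XTH22 rose 3.50-fold, XTH25, with 565 bases between it and XTH22, had 0 and 1 reads, and XTH13 and XTH12 had ratios of 0.528 (0.375 to 0.735) and 0.484 (0.380 to 0.611). XTH23 and XTH14 lie 363 bases apart on chromosome 4 and had ratios of 0.982 and 0.577 (0.525 to 0.634). XTH17, XTH18, XTH19 and XTH20 shared 13.3%, 11.5%, 8.6% and 3.9% of their coding 31-base words with another gene, and XTH12 and XTH13 3.1% and 3.2%, so part of their reads could be split differently. The words count exact matches only, and the size of that part is not known because the read placement is not described. The summed reads of XTH17 to XTH20 gave a ratio of 0.562 (0.550 to 0.575).

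XTH12, XTH13, XTH14, XTH17 to XTH21 and XTH26 are known mainly from roots or root hairs, and whole seedlings were sampled. Of these 9, a set chosen with their values known, none rose and 1 fell, beside 4.00% and 2.47% of all genes. In both conditions 4 of the 9 stayed below 10 RPKM and so could not be called. Less RPKM in red light was found in 8 of the 9 and in 13124 of the 27416 genes. Added up, their reads had a ratio of 0.565 (0.553 to 0.577). None of 17 root marker genes was called, 8 had more RPKM in red light and 9 less. However, 10 of the 17 stayed below 10 RPKM in both conditions and could not be called. Among these 10 were 7 of the 8 root hair markers and all 3 root cap markers. Of the 6 endodermis markers, CASP1 to CASP5 and ESB1, all reached 10 RPKM, and they summed to 793 RPKM in darkness and 752 in red light, a read ratio of 0.917 (0.899 to 0.934), with 4 of 6 higher in red light and CASP1 and ESB1 lower. The 8 root hair markers summed to 85.3 and 59.3 RPKM, a read ratio of 0.682 (0.646 to 0.719), with 7 of 8 lower in red light. The 3 root cap markers, SMB, BRN1 and BRN2, summed to 4.64 and 6.15 RPKM. The part of root tissue in the XTH values was not tested.

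Other genes make xyloglucan or trim it. Of 21 such genes none rose and 2 fell (9.52%), where over all genes 4.00% were called higher and 2.47% lower, and 12 more reached 10 RPKM without a call. The median log2 change was -0.12, against 0.00 for all genes, a value that falls among genes equal in both conditions. The 2 that fell both act on xyloglucan in the wall. XYL1, the alpha-xylosidase that removes xylose from xyloglucan fragments, had 15385 dark and 5351 red-light reads, or 136 and 58.1 RPKM, and fell 2.34-fold (2.27 to 2.42). BGAL10, the beta-galactosidase of xyloglucan, had 61.9 and 30.2 RPKM and fell 2.05-fold (1.95 to 2.15). The BGAL10 call lay at a log2 change of -1.01, and ended with TMM, DESeq2 and upper-quartile factors, each of which left 1 called gene.

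The other members of the trimming group were AXY8, an alpha-fucosidase, at 39.5 and 32.7 RPKM, AT5G20950 at 46.3 and 28.2 RPKM and AT5G04885 at 5.32 and 8.61 RPKM, both annotated as glycosyl hydrolases. The 5 together gave a read ratio of 0.535 (0.524 to 0.547). Of the glucan synthases that make the backbone, CSLC4 was the most abundant in darkness, at 63.9 and 37.5 RPKM, and all 5 gave a read ratio of 0.828 (0.804 to 0.854). The 5 xylosyltransferases, XXT1 to XXT5, gave 0.955 (0.926 to 0.986), with XXT2 at 66.0 and 58.6 RPKM. The 6 genes of side-chain transfer gave 0.898 (0.856 to 0.941). Among them XLT2, a galactosyltransferase, was at 4.99 and 10.3 RPKM, a ratio of 2.07 (1.80 to 2.38), and was not called because its log2 change on RPKM + 1 was 0.92. MUR3, another galactosyltransferase, was at 17.9 and 12.8 RPKM. Differences between these groups were not tested.

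**Figure D5:**
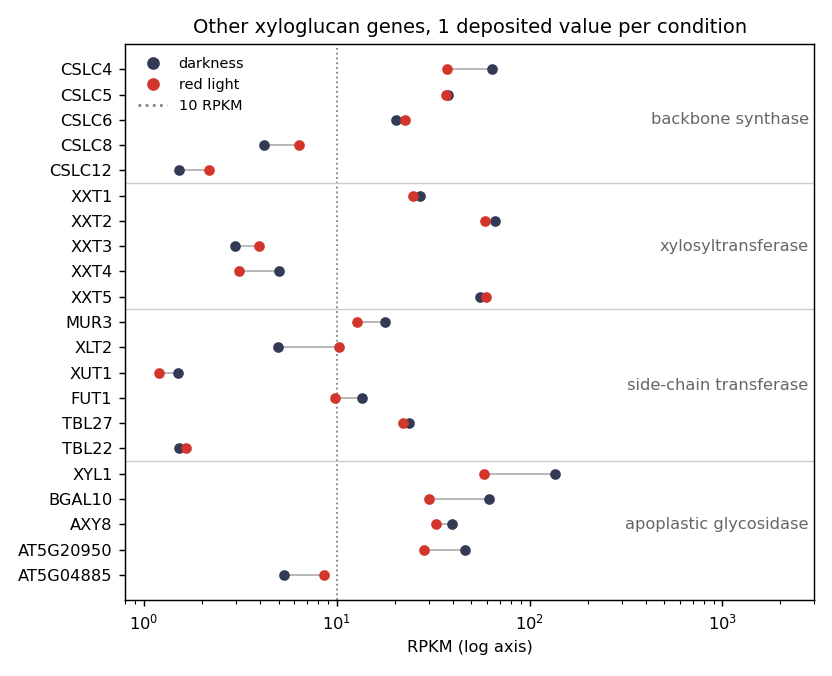
Each row is a gene of xyloglucan synthesis or trimming, with its RPKM in darkness and in red light on a log axis and its role at the right. The dotted line marks 10 RPKM. The widest gaps above the line are those of XYL1, from 136 to 58.1 RPKM, and BGAL10, from 61.9 to 30.2 RPKM.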

How the data were processed

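Per the labels, poly(A) RNA of 2 dark-grown and 2 red-light-grown samples of whole seedlings was sequenced. Per the submitters' processing notes, reads were placed on TAIR10. The sources used here name no aligner or counter and do not say whether strand was used. For each condition, per the file headers, the authors deposited 1 column of estimated counts and 1 of RPKM. Counts were whole numbers, with 0.5 standing for no read, which was set back to 0. The deposited RPKM values were scaled by the authors to coding length and to total reads. The coding length they imply equalled that of the RefSeq annotation of TAIR10.1 within 0.5 bases for the 31 members with reads in darkness.

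The design assumed no replicate columns, so no test was made. Calls used a 2-fold difference on RPKM + 1 and a higher level of 10 RPKM or more, computed over all genes. Ratios are of plain RPKM, and log2 changes are of RPKM + 1, which makes the change of a low gene look smaller. Intervals are Clopper-Pearson (95%). They cover counting error only, since each condition had 1 column, and they treat every read as independent. Reads here carry no molecular identifiers, so copies of the same molecule cannot be told apart by them. The call rule and the intervals were run on simulated reads that carried counting error only, which is the error the intervals assume. The planted changes were larger than 2-fold and lay in genes above 10 RPKM. That run says nothing of variation between replicates or of genes near the thresholds. Members, gene lists and the naming rule were chosen with earlier results of these data known. That rule took all members, in full for called ones and for the 3 of highest mean level, the called genes of the xyloglucan list and up to 4 others, proteins of the called members with the largest fall and the largest rise with their nearest relatives, and promoters of the 3 largest falls and rises. It was not followed for sequences: proteins were not used here, and promoters are printed only for XTH15 and XTH16. The 8 catalytic sites printed, the upstream stretches, the set of root-known members and the further xyloglucan genes named were chosen after their values were seen. Coordinates, coding sequences and promoters came from RefSeq TAIR10.1, which held 26691 of the 27416 models. Identity came from global alignment of coding sequences (Biopython 1.88). Scaling factors came from edgeR 4.0.16 and DESeq2 1.42.0 in R 4.3.3, on the estimated counts. Other software was scipy 1.17.1, pandas 2.3.3, matplotlib 3.10.9 and numpy 2.4.6 under Python 3.11.15.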

Additional observations from a re-analysis of the deposited data

How the results depend on the processing

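No paired analysis was possible because each condition had 1 column, and for the same reason no replicate could be left out. The 6 higher and 6 lower calls of the family became 2 and 2 at a 4-fold threshold (XTH6 and XTH32 higher, XTH15 and XTH5 lower). Under every other alternative run they stayed at 5 or 6 higher and 4 to 7 lower. No called member changed direction, but none could have. Thresholds and the pseudocount cannot change the sign of a log2 change. Rescaling shifted it by at most 0.07, far short of the 1 that a call needs. Of 119 values of single members under the alternatives, 107 kept their call, 11 lost it and 1 gained it. XTH6 lost its call at a minimum of 20 RPKM, and XTH26 was called lower with no minimum. The ratio of summed family reads, 0.458, was 0.480 with TMM factors, 0.479 with DESeq2 size factors, 0.462 with upper-quartile factors, 0.454 from summed RPKM and 0.853 without XTH15. The median log2 change of the family, -0.09, was -0.0624 with TMM factors, -0.0625 with DESeq2 size factors, -0.0828 with upper-quartile factors, -0.23 with a pseudocount of 0.1 RPKM and -0.37 over the members of at least 10 RPKM. No median over all genes of at least 10 RPKM was taken for comparison. The 2 lower calls of the xyloglucan genes became 1 with TMM factors, 1 with DESeq2 size factors and 1 with upper-quartile factors. Depth limits XTH1, XTH2, XTH3, XTH25 and XTH29, the 5 members with 6 reads or fewer in each condition.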
